A study of Mus musculus with 3 samples.

Results

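The genes described are the cytochrome P450 (CYP) genes of adult mouse lung endothelial cells (ECs). They were chosen by gene symbol alone, as rows named Cyp followed by a family number, a subfamily letter and a gene number. The rule took 93 of the 24346 rows of the table, in 16 families and 38 subfamilies. ECs were freshly isolated from the lungs of wild type male C57BL/6J mice aged 6 to 8 weeks, without culture, and sorted by flow cytometry on CD31, with VE-cadherin antibody injected before dissection and with CD45+ and Podoplanin+ cells gated out. The only condition gave 3 libraries, S38, S44 and S52, of poly-A selected RNA read as pairs of 51 bp without strand information. The labels do not say whether these came from separate mice, so the spread between them may be technical. With a single condition there was nothing to test between groups, and all values below are levels and their spread over the 3 libraries.

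P450s are haem enzymes that insert an oxygen atom into their substrates, and most sit in the endoplasmic reticulum, where the reductase Por hands them electrons. A few lie in mitochondria and draw electrons from ferredoxin. Families 1 to 3 (CYP1, CYP2 and CYP3) chiefly oxidise foreign compounds, family 4 (CYP4) hydroxylates fatty acids, and the higher family numbers mostly make or break down sterols, bile acids, steroid hormones, vitamin D and retinoic acid. The lung carries a P450 set of its own, known mainly from airway club cells, alveolar type 2 cells and capillary endothelium. Cyp4b1 is one of its abundant members, and Cyp1a1 is the classic target of the aryl hydrocarbon (Ah) receptor, a sensor of planar aromatic compounds.

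The promoters of Cyp4b1, the highest P450 gene of these cells, of Cyp1a1 and of its low neighbour Cyp1a2 are shown as the 250 bases before each RefSeq start on GRCm38.p6, 5′ to 3′ on the strand of the gene. Capitals mark the letters GCGTG, the core of the Ah receptor response element (or CACGC, the same on the other strand), and TATAA, the core of a TATA box (or TTATA).
Cyp4b1, chr4:115647722-115647971, minus strand: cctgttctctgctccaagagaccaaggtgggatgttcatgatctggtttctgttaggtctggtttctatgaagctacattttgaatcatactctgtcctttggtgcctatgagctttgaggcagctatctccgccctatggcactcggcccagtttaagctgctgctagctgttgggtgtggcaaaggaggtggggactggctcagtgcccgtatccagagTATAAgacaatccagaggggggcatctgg
Cyp1a1, chr9:57697363-57697612, plus strand: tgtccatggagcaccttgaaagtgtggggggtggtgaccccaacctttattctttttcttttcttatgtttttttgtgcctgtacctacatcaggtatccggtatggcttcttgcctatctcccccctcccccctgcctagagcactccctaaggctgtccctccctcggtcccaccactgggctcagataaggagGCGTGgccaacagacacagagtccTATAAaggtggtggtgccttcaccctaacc
Cyp1a2, chr9:57683656-57683905, minus strand: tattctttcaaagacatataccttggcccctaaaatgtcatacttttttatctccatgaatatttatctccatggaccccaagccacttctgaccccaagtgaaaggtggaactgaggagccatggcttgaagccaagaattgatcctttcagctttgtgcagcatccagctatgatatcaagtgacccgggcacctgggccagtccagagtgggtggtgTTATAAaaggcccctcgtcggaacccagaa
TATAA began 29 bases before the start of Cyp4b1 and 30 bases before that of Cyp1a1. Cyp1a2 held TTATA and TATAA overlapping by 4 letters, at 30 and 29 bases. GCGTG appeared once in the Cyp1a1 window, 54 bases before the start, and in neither of the other 2 windows. These are matches of letters, not measured binding.

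The values are FPKM, fragments scaled to transcript length and library size, so levels can be compared between genes per length. Detected means here a mean over the libraries of 1 FPKM or more, and where 3 values follow each other they are those of S38, S44 and S52 in that order. Depth was estimated at 38000000 fragments for S38, 38900000 for S44 and 34500000 for S52, so that 1 FPKM of a gene of 2000 bp stood for 69.9, 71.6 and 62.8 fragments, in that order. A value of 0 in such a gene is compatible with levels below 0.0429, 0.0419 and 0.0478 FPKM (the worth of 3 fragments, which covers counting error alone), and because a 0 in such files can also be a failed estimate, these genes are called listed at 0. All 8 endothelial markers were detected in every library, with single values from 43.1 FPKM for Erg to 1732 FPKM for Cldn5, both in S44. Transcripts of other lung cells were abundant as well. The alveolar type 2 gene Sftpc was at 3333, 2862 and 658 FPKM and the club cell gene Scgb1a1 at 2669, 2213 and 378 FPKM, so that both stood above every endothelial marker in S38 and S44. The libraries thus hold RNA of the label's cell type together with these epithelial transcripts, and both genes were lowest in S52.

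Most P450 genes were listed at 0 or were low in lung ECs. Of the 93 genes, 20 (21.5%) reached a mean of 1 FPKM, against 48.3% of all rows of the table. The share at 10 FPKM or above was 8.60% (8 genes), against 25.7% of all rows, and 45 genes (48.4%) were listed at 0 in every library, against 29.5% of all rows. The other 28 genes lay between 0 and 1 FPKM, 13 of them below 0.1 FPKM. The median over the 93 means was 0.00611 FPKM, where the median row of the table was at 0.784 FPKM. Among genes that were detected the gap was smaller, with a median of 7.32 FPKM for the 20 P450 genes and 11.2 FPKM for all 11770 detected rows. At 1 FPKM the 3 genes just above the threshold were Cyp4a32 at a mean of 1.81 FPKM, Cyp2t4 at 1.09 FPKM and Cyp4f18 at 1.09 FPKM, and the 3 just below were Cyp7b1 at 0.945 FPKM, Cyp2a5 at 0.844 FPKM and Cyp2r1 at 0.672 FPKM. Only 15 of the 20 detected genes reached 1 FPKM in every library, and 4 genes with a lower mean reached it in some library.

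**Figure D1:**
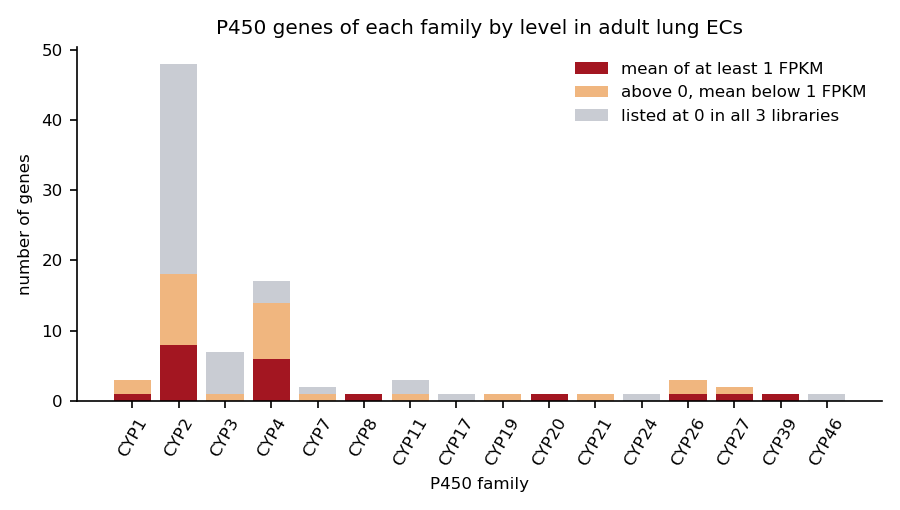
Number of P450 genes in each of the 16 families, split by level in adult lung ECs: mean of at least 1 FPKM (red), above 0 with a lower mean (orange) and listed at 0 in all 3 libraries (grey). CYP2 is the largest family with 48 genes, 30 of them listed at 0, and 14 of the 20 detected genes belong to CYP2 or CYP4.

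The families were unequal. CYP2, the largest with 48 genes, had 8 detected and 30 listed at 0, whereas CYP4 had 6 of 17 detected and only 3 listed at 0. None of the 7 CYP3 genes, which carry out much of drug oxidation in liver and gut, was detected, and 6 of them were listed at 0. Families CYP1, CYP8, CYP20, CYP26, CYP27 and CYP39 each gave 1 detected gene, and families CYP7, CYP11, CYP17, CYP19, CYP21, CYP24 and CYP46 gave none. Of the 28 subfamilies with a single gene, 11 (39.3%) were detected, against 9 of 65 genes (13.8%) in subfamilies of 2 or more. In each larger subfamily with any detected gene, the detected genes numbered 1 to 3.

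**Figure D2:**
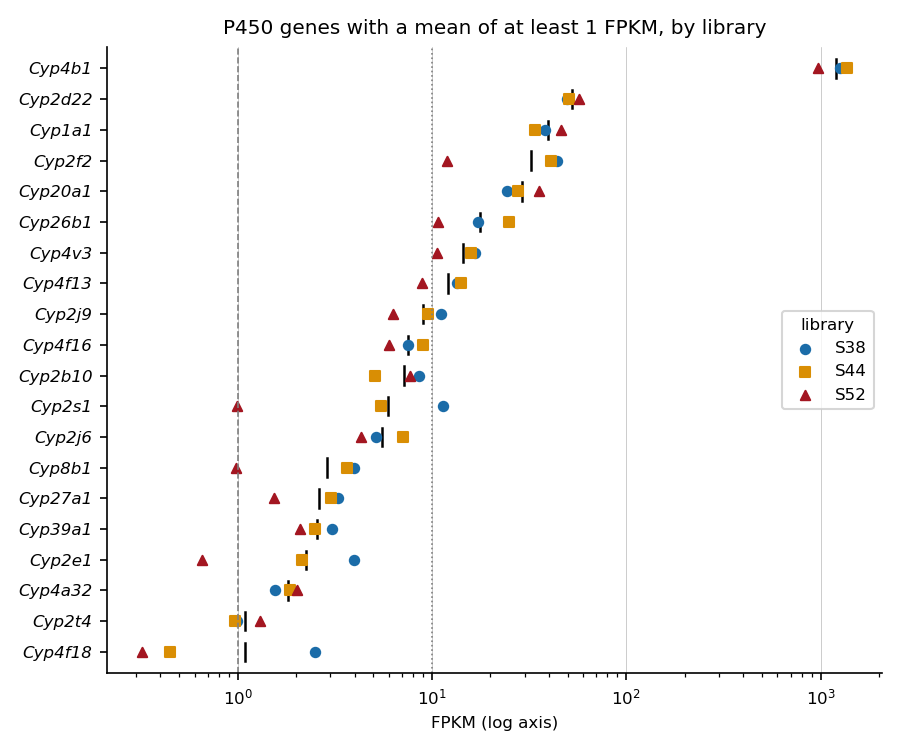
FPKM (log axis) of the 20 detected P450 genes, with 1 marker per library and a black bar at the mean. The dashed line is at 1 FPKM and the dotted line at 10 FPKM. Cyp4b1 sits apart at 967 to 1364 FPKM, and the S52 markers (triangles) are the lowest of the 3 in 14 of the 20 rows.

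Cyp4b1, which oxidises fatty acids and aromatic amines and lies at chr4:115624725-115647723 on the minus strand with 12 exons (GRCm38), dominated the set. It was at 1257 (S38), 1364 (S44) and 967 FPKM (S52), or 1196 ± 205 FPKM (SD, n = 3 libraries), which ranked 76 among all 24346 rows. S52 was the lowest library, and the highest was 1.41-fold above it. In each library Cyp4b1 stood 16.9 to 26.9-fold above the next P450 gene. Its level was like that of Pecam1, the gene of the sorting antigen CD31, which was at 1125 (S38), 1216 (S44) and 1164 FPKM (S52). Cyp4b1 was the higher of the pair in S38 and S44 and the lower in S52, with ratios of 1.12, 1.12 and 0.831. The 93 genes summed to 1529 (S38), 1629 (S44) and 1188 FPKM (S52), and Cyp4b1 took 82.2%, 83.7% and 81.4% of these sums (82.4% ± 1.16, SD, n = 3). The 5 highest genes together took 93.2% ± 0.864 and the 8 highest 96.2% ± 0.627 (SD, n = 3 for each). Cyp4b1 shares 10.2% of its 51-base windows, the length of a read, with another gene, most of them with the pseudogenes Cyp4b1-ps2 and Cyp4b1-ps1. The longest coding stretch it has in common with Cyp4b1-ps2 is shown because reads inside it fit both genes. It runs over 136 bases of exons 10, 11 and 12, within chr4:115625205-115625852 on the minus strand.
Cyp4b1 and Cyp4b1-ps2: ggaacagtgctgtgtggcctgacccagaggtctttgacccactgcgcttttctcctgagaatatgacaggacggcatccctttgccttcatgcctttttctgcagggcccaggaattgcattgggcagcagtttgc
Cyp4b1-ps2 itself was at 3.03 (S38), 0.385 (S44) and 2.32 FPKM (S52).

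The other CYP4 genes were far lower. Cyp4v3, an omega-hydroxylase of fatty acids, was at 16.7 (S38), 15.9 (S44) and 10.6 FPKM (S52) (14.4 ± 3.32 FPKM, SD, n = 3). Cyp4f13, of the subfamily that hydroxylates leukotrienes and long fatty acids, was at 13.5, 14.1 and 8.85 FPKM in the same order (12.2 ± 2.88 FPKM, SD, n = 3). Both were lowest in S52, with S38 and S44 close together. Cyp4f16 was at 7.53, 8.99 and 6.00 FPKM (7.503 ± 1.496 FPKM, SD, n = 3), again lowest in S52, but 26.0% of its windows also occur in other genes, mostly Cyp4f37, so part of its reads could be assigned elsewhere. Cyp4f18, of the same subfamily, was at 2.49 FPKM in S38 and at 0.448 and 0.323 FPKM in S44 and S52 (1.09 ± 1.21 FPKM, SD, n = 3, and 0.386 FPKM without S38). S38 alone put its mean above 1 FPKM, so its detection rests on that library. Cyp4a32 was at 1.56, 1.85 and 2.02 FPKM (1.81 ± 0.236 FPKM, SD, n = 3) and was the only detected gene of the Cyp4a subfamily, the omega-hydroxylases that Ppara controls in liver. Cyp4a32 shares 45.8% of its windows with other genes, chiefly Cyp4a10, which was at 0.126 FPKM in mean. The longest coding stretch common to both, shown because a read inside it cannot be placed, covers 179 bases of exons 7 and 8 within chr4:115611078-115611344 on the plus strand.
Cyp4a32 and Cyp4a10: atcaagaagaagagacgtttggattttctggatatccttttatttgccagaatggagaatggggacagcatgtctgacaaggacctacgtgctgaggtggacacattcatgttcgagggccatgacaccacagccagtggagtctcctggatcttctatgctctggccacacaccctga

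The lung and airway xenobiotic list (Cyp2f2, Cyp2a5, Cyp2a4, Cyp2b10, Cyp2e1, Cyp2s1 and Cyp4b1) had 5 of 7 genes detected, and 4 of these 5 were lowest in S52. That held for 70.0% of all detected P450 genes and 46.3% of all detected rows. Cyp2f2, the naphthalene-oxidising P450 best known from club cells, was at 43.96 (S38), 40.9 (S44) and 12.0 FPKM (S52) (32.3 ± 17.7 FPKM, SD, n = 3). S52 lay 3.68-fold below S38, while S38 and S44 were nearly level. Cyp2s1, which metabolises retinoids and eicosanoids in epithelia of the airway, was at 11.4, 5.48 and 0.990 FPKM (5.97 ± 5.25 FPKM, SD, n = 3, and 3.23 FPKM without S38), an 11.6-fold span and the widest of the 20 detected genes. Cyp2e1, the ethanol-inducible P450, was at 3.98, 2.14 and 0.652 FPKM (2.26 ± 1.67 FPKM, SD, n = 3, and 1.40 FPKM without S38). Both genes were highest in S38, lowest in S52 and in between in S44. Cyp2b10, the usual target of the nuclear receptor CAR, was at 8.61, 5.10 and 7.74 FPKM (7.15 ± 1.83 FPKM, SD, n = 3) and was the only detected gene with S52 in the middle. Cyp2a5, a coumarin hydroxylase, fell just short of detection at 1.08, 1.43 and 0.0189 FPKM, the last worth about 1.19 fragments by the depth estimate, and its near copy Cyp2a4 was listed at 0. Of the windows of Cyp2a5, 40.0% are shared with another gene, so these 2 values are uncertain. Of Cyp2f2, 14.7% of the exon bases are overlapped on the other strand by Gm15883, whose reads cannot be told apart in a library without strand information.

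Markers of several other lung cells were lower in S52 too, whereas mural markers and some alveolar type 1 markers were not. The 4 club cell markers summed to 2743 (S38), 2286 (S44) and 393 FPKM (S52), all 4 lowest in S52 and Bpifa1 listed at 0 there. The 7 alveolar type 2 markers summed to 3899, 3265 and 786 FPKM, again all lowest in S52 and none at 0. Of the 5 ciliated markers, which summed to 207, 214 and 150 FPKM, the 4 detected were lowest in S52 and Ccdc78 was listed at 0 there. Most of this sum was Tppp3, at 188, 203 and 144 FPKM. The 8 endothelial markers summed to 4757, 5290 and 4447 FPKM, with none at 0 and 2 of 8 lowest in S52. The 4 platelet markers differed most, with sums of 1692, 1345 and 37.96 FPKM, all lowest in S52 and none at 0. The 3 erythroid markers summed to 337, 468 and 94.5 FPKM, all lowest in S52 and none listed at 0. Hbb-bs, however, was at 185, 308 and 0.00319 FPKM, the last below the limit given above for a 0. Hba-a1 was at 147, 147 and 91.0 FPKM. The 6 leukocyte markers summed to 1062, 792 and 171 FPKM, nearly all of it Lyz2, a gene that alveolar type 2 cells also express. Without Lyz2 the other 5 summed to 14.9, 12.4 and 4.94 FPKM, and Cd3e was listed at 0 in S52. Of the 4 leukocyte markers detected, 3 were lowest in S52, whereas Csf1r was at 1.25, 1.85 and 1.30 FPKM, lowest in S38. The 5 macrophage markers summed to 74.7, 55.4 and 20.7 FPKM, with both detected ones lowest in S52 and Marco listed at 0 there. The 3 mesothelial markers summed to 2.04, 5.83 and 0 FPKM, so all 3 were listed at 0 in S52. In the lists that follow, as in the endothelial and leukocyte lists, not all detected markers were lowest in S52. The alveolar type 1, fibroblast and lymphatic endothelial sums were nevertheless lowest in S52. The 5 mural markers, at 115, 60.2 and 111 FPKM, were none of them lowest in S52, 3 were highest there and none was at 0. Of the 4 alveolar type 1 markers, which summed to 348, 373 and 273 FPKM with none at 0, 2 were lowest in S52 and 2 highest. Those highest in S52 were Ager (43.3, 33.4 and 66.0 FPKM) and Rtkn2 (0.851, 0.149 and 3.07 FPKM). The 5 fibroblast markers summed to 75.7, 57.6 and 44.2 FPKM, with 2 lowest and 1 highest in S52 and none at 0. The 4 lymphatic endothelial markers summed to 565, 623 and 414 FPKM, with 2 of the 3 detected lowest and 1 highest in S52, and none at 0. Nearly all of this sum was Lyve1, at 539, 597 and 390 FPKM, whereas Prox1 was at 0.132, 0.173 and 0.598 FPKM. The part of these cells in the P450 values was not tested. In bulk samples fewer cells of a type and less RNA per cell cannot be told apart.

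**Figure D3:**
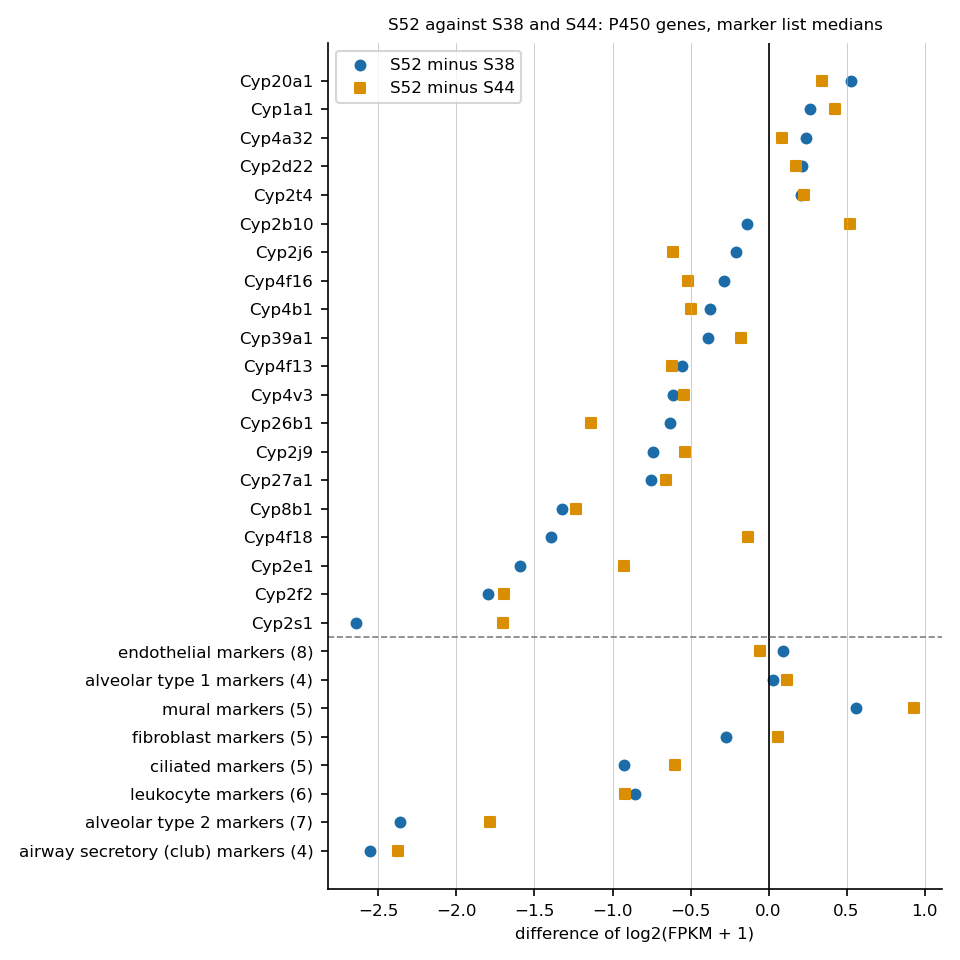
Difference of log2(FPKM + 1) between S52 and S38 (circles) and between S52 and S44 (squares). The 20 detected P450 genes are above the dashed line. Below it are medians of the endothelial, alveolar type 1, mural, fibroblast, ciliated, leukocyte, alveolar type 2 and club cell marker lists. Numbers of genes per list are in brackets. The other lists are not drawn, among them the platelet list, with medians of -5.01 against S38 and -4.67 against S44. Cyp2s1 and Cyp2f2 lie furthest to the left among the P450 genes, at -2.65 and -1.80 against S38, and the endothelial median is at 0.092 and -0.056.

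Across the 20 detected genes S52 was the lowest library for 14 (70.0%), against 46.3% of all detected rows, and the highest for 5 (25.0%), against 33.9%. The median difference of log2(FPKM + 1) was -0.47 between S52 and S38 and -0.52 between S52 and S44, where all 11770 detected rows were at -0.083 and -0.062. For 7 of the 20 genes (35.0%, against 20.1% of detected rows) the highest library was over 2-fold above the lowest. These were Cyp2f2, Cyp26b1, Cyp2s1, Cyp8b1, Cyp27a1, Cyp2e1 and Cyp4f18, and S52 was the lowest in each. With detection from S38 and S44 alone, 20 genes were again detected, with Cyp2a5 in place of Cyp2t4. Of these, only 2 spanned over 2-fold, Cyp2s1 and Cyp4f18, against 5.06% of rows detected in those libraries. The median difference over the club cell markers was -2.55 and -2.37 against S38 and S44, and over the alveolar type 2 markers -2.36 and -1.79.

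The 5 genes highest in S52 were Cyp2d22, Cyp1a1, Cyp20a1, Cyp4a32 and Cyp2t4. Cyp2d22, the mouse counterpart usually set beside human CYP2D6, was the second P450 gene of the set, at 49.4 (S38), 50.8 (S44) and 57.4 FPKM (S52) (52.5 ± 4.25 FPKM, SD, n = 3). Its coefficient of variation of 8.10% was the smallest among the 8 genes at 10 FPKM or above. It is the only detected gene of the Cyp2d cluster on chromosome 15. Cyp20a1, an orphan P450 with no settled substrate, was at 24.3, 27.7 and 35.5 FPKM (29.2 ± 5.73 FPKM, SD, n = 3). Cyp2t4, another P450 without a known role, was at 0.990, 0.966 and 1.30 FPKM, so S52 alone lifted its mean to 1.09 FPKM. The spans of these 5 genes were between 1.16-fold for Cyp2d22 and 1.46-fold for Cyp20a1. With each library rescaled to the same sum of FPKM, Cyp20a1 and Cyp4a32 remained highest in S52 and Cyp2d22 and Cyp1a1 did not. That sum was below the sum of every library, and Cyp2t4, at a mean of 0.793 FPKM, was no longer detected. With the same upper quartile in each library, Cyp4a32 was not highest in S52 and the other 4 were.

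Among the Ah receptor genes, Cyp1a1 was the only one of 3 detected. It was at 38.2 (S38), 34.1 (S44) and 46.0 FPKM (S52) (39.4 ± 6.08 FPKM, SD, n = 3), rank 2200 in the table. Its neighbour Cyp1a2, the main CYP1 enzyme of liver, was listed at 0 in S38 and was at 0.0443 FPKM in S44 (about 3.07 fragments) and 0.644 FPKM in S52. In S52, Cyp1a1 was 71.5-fold above Cyp1a2. The RefSeq starts of the 2 genes lie 13958 bp apart on chromosome 9, pointing away from each other. Cyp1b1, the third member of the family, which also oxidises oestrogens, was at 0.0688, 0.380 and 0.0118 FPKM. Hence both other genes stayed under 1 FPKM in every library and differed in order, Cyp1a2 being highest in S52 and Cyp1b1 in S44. Cyp1a1 and Cyp1a2 share 92 windows of read length, which are 3.48% of those of Cyp1a1. The longest coding stretch in common, 137 bases of exon 2 at chr9:57700283-57700419 on the plus strand, is shown as the place where a read of Cyp1a1 could be given to Cyp1a2.
Cyp1a1 and Cyp1a2: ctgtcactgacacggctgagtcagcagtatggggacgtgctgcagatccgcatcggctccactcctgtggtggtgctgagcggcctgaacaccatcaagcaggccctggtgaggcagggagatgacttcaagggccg

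The Ah receptor machinery was present. Ahr itself was at 40.9 (S38), 37.1 (S44) and 30.5 FPKM (S52) (36.2 ± 5.29 FPKM, SD, n = 3) and its partner Arnt at 16.4 ± 2.48 FPKM (SD, n = 3). Of the other Ah receptor targets, 2 of 5 were detected. Tiparp, whose protein dampens the receptor, was at 29.1, 30.0 and 49.4 FPKM, highest in S52 as Cyp1a1 was. Nqo1, a quinone reductase, was at 4.51, 4.25 and 0.590 FPKM and was lowest there. The repressor Ahrr was at 0.247 ± 0.0716 FPKM (SD, n = 3), Ugt1a6a at 0.390 FPKM and Aldh3a1 at 0.315 FPKM in mean. The targets thus had no common order over the libraries. Across 12 regulators, 7 were detected. Besides Ahr and Arnt, the antioxidant factor gene Nfe2l2 was at 91.4 ± 8.34 FPKM, Nr1h2 at 54.4 ± 7.30 FPKM, Rxrb at 25.5 ± 0.844 FPKM and Rxra at 12.9 ± 1.76 FPKM (SD, n = 3 for each). Those below 1 FPKM were Nr1i2 (PXR), Nr1i3 (CAR), Vdr, Ppara and Ahrr, from 0.0038 FPKM for Nr1i2 to 0.248 FPKM for Nr1i3.

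Cyp26b1, which breaks down retinoic acid, was the only detected gene of the 3 in its family. It was at 17.2 (S38), 24.9 (S44) and 10.7 FPKM (S52) (17.6 ± 7.09 FPKM, SD, n = 3), a 2.32-fold span with S44 highest and S52 lowest. No window of its transcript occurs in another gene. Cyp26a1 was at 0.0486, 0.395 and 0.869 FPKM and Cyp26c1 was at 0.0183 FPKM in S44 and at 0 in the other libraries. Cyp26a1 was thus highest in S52, where Cyp26b1 was lowest, but at levels of about 3.01, 25.1 and 48.3 fragments. Of 12 genes of retinoic acid synthesis and response, 8 were detected and 4 reached 10 FPKM. Dhrs3, which turns retinal back to retinol, was at 85.2, 90.0 and 43.7 FPKM, and Aldh1a1, which makes retinoic acid, at 94.1, 81.3 and 41.7 FPKM. Both of these were over 2-fold lower in S52 than in their highest library. The other 2 detected genes of the list with such a span went the other way and were highest in S52, the retinol dehydrogenase gene Rdh10 at 4.15, 3.69 and 7.86 FPKM and the retinoic acid carrier gene Crabp2 at 0.495, 2.47 and 3.05 FPKM. Of the 8 detected genes, 3 were lowest and 4 highest in S52. The receptor genes Rarg, at 44.6 ± 1.07 FPKM, and Rara, at 17.3 ± 1.81 FPKM (SD, n = 3 for each), varied little.

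Of the 22 genes of the Cyp2c and Cyp2j subfamilies, which include the epoxygenases that turn arachidonic acid into vasoactive epoxides, 17 were listed at 0 and 2 were detected. Cyp2j9 was at 11.2 (S38), 9.55 (S44) and 6.28 FPKM (S52) (9.004 ± 2.49 FPKM, SD, n = 3), and Cyp2j6 was at 5.14, 7.10 and 4.30 FPKM (5.51 ± 1.44 FPKM, SD, n = 3). S52 was the lowest library of both. Their ranges overlapped, but Cyp2j9 was the higher of the pair within every library. Among the 15 Cyp2c genes only Cyp2c44 had a value above 0, at 0.0535 FPKM in S44 alone. Ephx1, the microsomal epoxide hydrolase that opens epoxides of foreign compounds, was at 181, 199 and 264 FPKM (215 ± 43.7 FPKM, SD, n = 3), highest in S52. Ephx2, the soluble hydrolase that opens fatty acid epoxides, was at 0.374, 0.126 and 0.664 FPKM. Ephx1 was the only one of 4 epoxide hydrolases detected.

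Sterol and bile acid P450s gave 3 detected genes of 6, all at 2.88 FPKM or less in mean and all lowest in S52. Cyp8b1, the sterol 12-alpha-hydroxylase that sets cholic acid synthesis in liver and has a single exon, was at 3.98 (S38), 3.67 (S44) and 0.984 FPKM (S52) (2.88 ± 1.65 FPKM, SD, n = 3). Cyp27a1, the mitochondrial sterol 27-hydroxylase, was at 3.28, 3.02 and 1.54 FPKM (2.61 ± 0.936 FPKM, SD, n = 3). In both genes S38 and S44 were close and S52 was lower, with spans of 4.04-fold for Cyp8b1 and 2.12-fold for Cyp27a1. Cyp39a1, an oxysterol 7-alpha-hydroxylase, was at 3.05, 2.50 and 2.09 FPKM (2.55 ± 0.478 FPKM, SD, n = 3), a span of 1.45-fold. Cyp7b1, another oxysterol 7-alpha-hydroxylase, missed detection with 0.170, 0.778 and 1.89 FPKM, an 11.1-fold span in which S52 was the highest. Cyp7a1, the rate-limiting enzyme of bile acid synthesis, and Cyp46a1, the brain cholesterol 24-hydroxylase, were listed at 0. Of 5 hepatocyte markers only Apoa1 was detected, at 0.506, 1.33 and 2.76 FPKM, and Ttr, Serpina1a and Fgb were each at 0 in 2 of the 3 libraries.

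No vitamin D or steroid hormone P450 was detected. Of the vitamin D genes, the 25-hydroxylase Cyp2r1 was at 1.07 (S38), 0.742 (S44) and 0.200 FPKM (S52), the 1-alpha-hydroxylase Cyp27b1 was at 0.105 FPKM in S38 and at 0 in S44 and S52, and the 24-hydroxylase Cyp24a1 was listed at 0 in all. Cyp2r1 was lowest in S52. Of the 6 steroid hormone genes, Cyp11b1, Cyp11b2 and Cyp17a1 were listed at 0 in every library, and the highest mean was 0.216 FPKM for Cyp11a1, the side chain cleavage enzyme. Its value came mainly from S38, at 0.586 FPKM, against 0.0635 FPKM in S44 and 0 in S52. Of P450 genes whose symbols fall outside the rule, the prostacyclin synthase gene Ptgis was at 27.9, 30.6 and 24.8 FPKM, the thromboxane synthase gene Tbxas1 at 24.4, 17.8 and 2.28 FPKM and the lanosterol demethylase gene Cyp51 at 5.68, 5.28 and 4.45 FPKM, while Cyp4a12a, Cyp4a12b and Cyp2ab1 were at 0.0199 FPKM or less in every library.

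The partners that P450s need were all present. All 10 electron transfer genes were detected, 9 of them at 10 FPKM or above. Por, the reductase that serves every P450 of the endoplasmic reticulum, was at 62.8 (S38), 70.2 (S44) and 45.8 FPKM (S52) (59.6 ± 12.5 FPKM, SD, n = 3), the same order of libraries as Cyp4b1 showed. Cytochrome b5, encoded by Cyb5a, was at 388, 366 and 279 FPKM, and its reductase Cyb5r3 at 133, 107 and 233 FPKM. Of the 10 genes, 4 were lowest in S52, Por and Cyb5a among them, and 6 were highest there, Cyb5r3 among them. The others were Pgrmc1 at 100.1 ± 11.6 FPKM, Cyb5b at 35.8 ± 1.79 FPKM, Cyb5r1 at 18.4 ± 2.73 FPKM and Pgrmc2 at 17.5 ± 2.06 FPKM (SD, n = 3 for each). Of the mitochondrial chain, Fdx1l was at 14.6 ± 4.86 FPKM, Fdx1 was at 10.9 ± 1.71 FPKM and Fdxr at 3.36 ± 1.21 FPKM (SD, n = 3 for each). Of the 12 haem synthesis and breakdown genes all were detected and 8 reached 10 FPKM, among them Alas1, the rate-limiting enzyme of haem synthesis outside red cells, at 47.2 ± 2.24 FPKM, and Hmox1, the inducible haem oxygenase, at 25.0 ± 7.17 FPKM (SD, n = 3 for each). The other 6 were Urod, Blvra, Hmox2, Ppox, Fech and Blvrb, from 10.3 FPKM for Blvrb to 33.4 FPKM for Urod in mean. The range over libraries was narrow for Alas1, and 9 of these 12 genes were lowest in S52, against 46.3% of all detected rows.

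**Figure D4:**
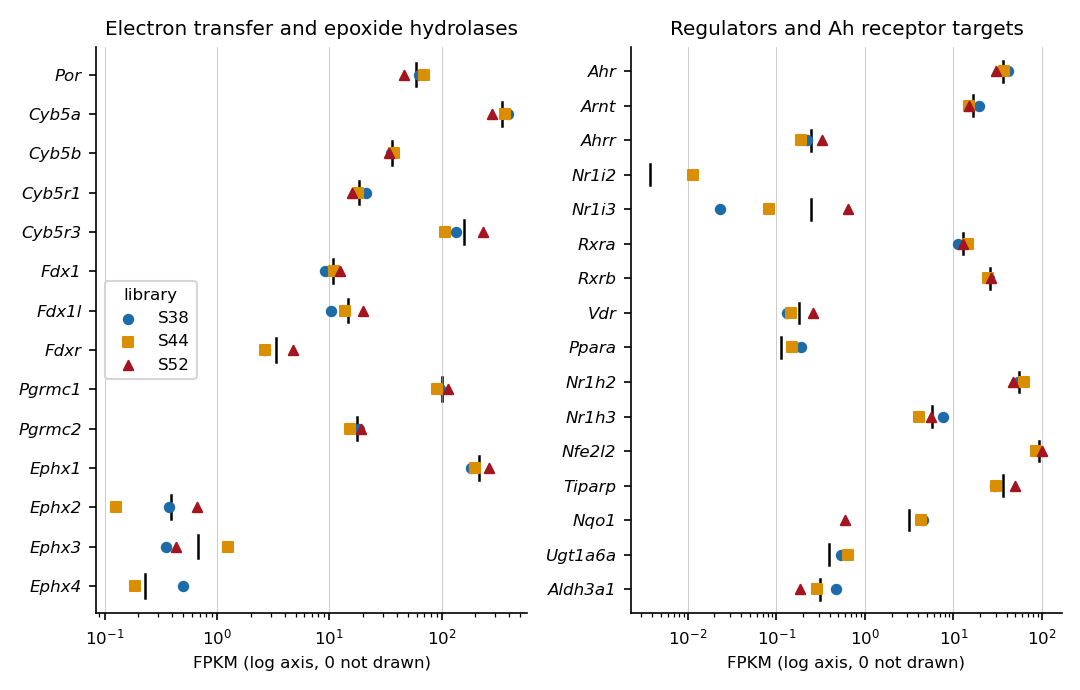
FPKM (log axis, values of 0 not drawn) of electron transfer and epoxide hydrolase genes (left) and of P450 regulators and other Ah receptor targets (right), with 1 marker per library and a black bar at the mean. All 10 electron transfer genes lie above 1 FPKM in each library, whereas Nr1i2, Nr1i3, Vdr, Ppara and Ahrr lie below it.

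Most P450 genes sit in clusters of near relatives, and detection was uneven within them. With members less than 1 Mb apart joined, 7 clusters of 4 or more genes held 63 of the 93 genes, of which 11 were detected, against 9 of the 30 genes outside them. The 14 Cyp2c genes of the chromosome 19 cluster and the 6 Cyp3a genes of the chromosome 5 cluster were all listed at 0. The limits that a count of 0 allows there were 0.0285 to 0.0600 FPKM and 0.0353 to 0.0561 FPKM. They take the full transcript length and would be higher if shared reads were not counted. In Cyp2c40, for example, 71.5% of the windows also occur in other genes. No gene of either cluster had a value above 0, and a 0 here can also be a failed estimate. On chromosome 15, Cyp2d22 at the edge of 8 Cyp2d genes was at 52.5 FPKM in mean and the 7 others were at 0.199 FPKM or less. On chromosome 4, Cyp4b1 lay at the end of 7 genes next to Cyp4a32, so the highest P450 gene and one at 1.81 FPKM in mean were direct neighbours. The chromosome 7 cluster had 4 of 13 genes detected, Cyp2s1 and Cyp2b10 at one end and Cyp2f2 and Cyp2t4 at the other, with 7 listed at 0. Those 4 differed in order over the libraries, Cyp2s1 and Cyp2f2 being lowest in S52, Cyp2b10 in S44 and Cyp2t4 in S44. On chromosome 17, Cyp4f13 and Cyp4f16 were the 2 detected of 8 genes.

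**Figure D5:**
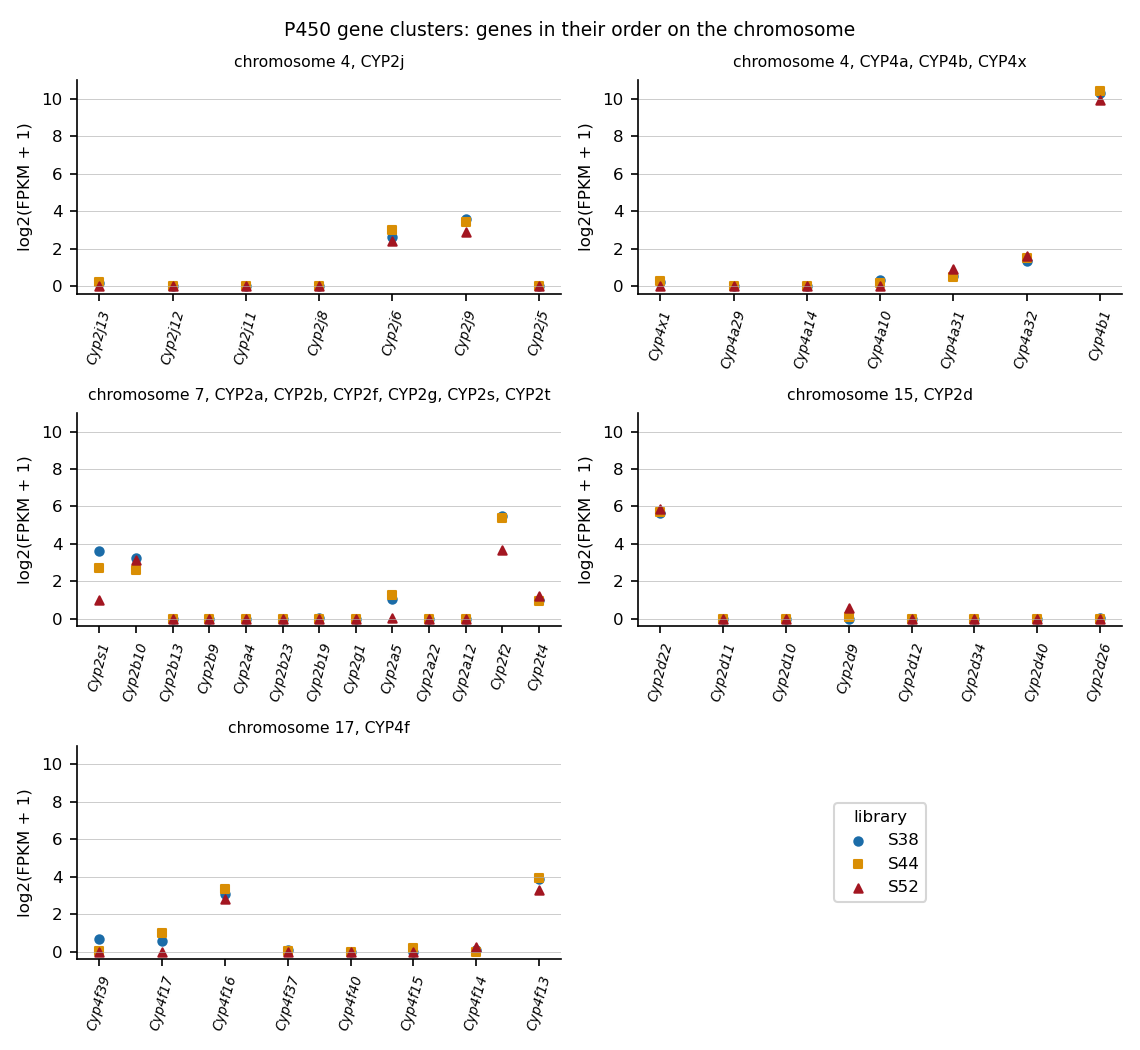
Level as log2(FPKM + 1) of P450 genes in their order along the chromosome (not to distance), with 1 marker per library, for the 5 clusters with a gene above 0. The chromosome 5 and chromosome 19 clusters, with every gene listed at 0, are not drawn. In each panel 1 to 4 genes have a mean of 1 FPKM or more and most others are at or near 0, and Cyp4b1 ends its cluster next to Cyp4a32.

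Sequence that genes share limits some of these values. Of the 93 genes, 91 were matched to GENCODE M21, and 21 of them share no window of 51 bases with another gene. Over 20% of the windows are shared in 27 genes, but only 2 of these were detected, Cyp4a32 and Cyp4f16, and 19 were listed at 0. For the rest of the detected genes the share was 10.2% or less. Promoter letters were compared over the 72 genes with a RefSeq promoter. TATAA was found for 6 of 18 detected genes (33.3%) and 30 of 54 others (55.6%). Over all genes of the table with a promoter, the shares were 14.6% of 8879 detected and 32.1% of 8312 others. GCGTG was found for 6 of 18 detected P450 genes (33.3%) and 8 of 54 others (14.8%), against 50.4% and 23.4% of all genes in that order. Per promoter rather than per gene, 46.3% of 82 P450 promoters held TATAA and 18.3% held GCGTG, against 22.8% and 28.2% of all 32851 promoters. A gene without a match lacks these letters in this window and no more is shown.

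The order of the 20 detected genes was set only in part by these libraries. Of the 19 neighbouring pairs in the order of means, 4 had ranges that did not overlap, namely Cyp4b1 above Cyp2d22, Cyp2d22 above Cyp1a1, Cyp2j6 above Cyp8b1 and Cyp4a32 above Cyp2t4. The order of 9 pairs was the same in every library. Cyp1a1 was above Cyp20a1 in every library, but the place of Cyp2f2 was not settled, since it was above both in S38 and S44 and below both in S52. The means from Cyp4v3 down to Cyp2j6 stood in neighbouring pairs whose ranges overlapped. Even so, Cyp4v3, Cyp4f13, Cyp2j9 and Cyp4f16 kept this order within every library.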

How the data were processed

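RNA-seq of 3 libraries of adult lung ECs was analysed. What the authors deposited is a table of FPKM by gene symbol on mm10. The submitters' processing notes name bcl2fastq 2.17, FastQC 0.11.5, Trimmomatic 0.36, TopHat2 2.1.0 and Cufflinks 2.2.1 without their roles, whereas the study's methods align with STAR and count with HTSeq. The gene annotation behind the FPKM is not given in the sources used here. All per-sample columns were used (0 left out), with no rescaling. The table holds no counts, so no count model was fitted, and with 1 group no test was run.

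P450 genes were found by a symbol pattern, and each one at 1 FPKM or more in mean was named, with the 3 genes on either side of that threshold. The genes and the lists of roles, partners and cell markers were chosen with earlier results of these data known. A gene was left out of its list and is not reported here, and partner and marker genes below 10 FPKM are given mostly as counts or sums. Means and SDs are on the FPKM scale, and differences between libraries are of log2(FPKM + 1), which understates changes of low genes. Depth was estimated from low values of 7077 genes with a single GENCODE M21 transcript of 800 to 4000 bp, as the step that turns FPKM times length, less 160, 160 and 180 bp in S38, S44 and S52, into whole fragments. Within 0.15 of a whole number lay 77.5% of 395, 76.5% of 514 and 74.0% of 246 values. Because the step was searched, the depth is an estimate. On simulated counts for the 7077 genes of each library it returned the 3 known depths with an error of 0%. The simulation used whole counts, the same formula and depths that lay on the searched grid. It therefore checks the search alone and gives no error for the depths of these data.

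Positions and shared windows are from GENCODE M21 (GRCm38), and promoters from RefSeq (GRCm38.p6), with 72 of 93 genes matched. Alternatives were leaving out each library, 2 rescalings, other thresholds and other pseudocounts. Python 3.11.15, pandas 2.3.3, numpy 2.4.6 and matplotlib 3.10.9 were used.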

Additional observations from a re-analysis of the deposited data

How the results depend on the processing

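The sum of deposited FPKM ranged from 1153890 in S38 to 1603600 in S44, so a rescaling to 1 sum moves every level. Rescaling to the same sum shifted the median difference of all detected rows between S52 and S38 from -0.083 to -0.34 and between S52 and S44 from -0.062 to 0.088, and rescaling to the same upper quartile shifted them to -0.17 and -0.20. The P450 medians less these were -0.41 and -0.45 after the first and -0.39 and -0.46 after the second, against -0.39 and -0.46 as deposited. The number of detected genes was 35 with a threshold of 0.1 FPKM and 13 with 3 FPKM, in place of 20. The number of genes spanning over 2-fold, 7 as reported, was 22 with a threshold of 0.1 FPKM, 2 with 10 FPKM and 35 with no filter on low values, and between 2 and 7 with a library left out, the lowest without S52. With no filter the median difference of the 93 genes was 0 against S38 and 0 against S44, since most are at 0. The counts of detected genes, of genes at 10 FPKM and of genes lowest in S52 stayed within 1.5 times under each rescaling and with each library left out. Rescaling cannot change shares within a library or the count at 0, and with a library left out the share of Cyp4b1 was 81.8% to 82.9% and that of the top 5 was 92.8% to 93.6%. The count of genes listed at 0 under these settings, and the background without S52, were added after seeing the data. Of the means of the 20 named genes, 3 moved over 1.5-fold with a library left out, each without S38: Cyp4f18 from 1.09 to 0.386 FPKM, Cyp2s1 from 5.97 to 3.23 FPKM and Cyp2e1 from 2.26 to 1.40 FPKM. After rescaling, 29 of 40 means stayed within 1 SD, the other 11 all under the same sum. That sum was set below the sum of every library, so each mean fell, Cyp4b1 from 1196 to 874 FPKM. The 11 therefore do not measure differences between libraries alone. Leaving out S52 gave no value for the genes lowest in S52 or for the differences that use it, and leaving out S38 or S44 none for its own difference. No paired analysis was possible because all libraries belong to 1 group. The depth limits statements on genes listed at 0 to levels above 0.0192 to 0.0885 FPKM, by gene, if reads from the full transcript were counted.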

Other observations

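Of the 28 P450 genes between 0 and 1 FPKM in mean, 17 were listed at 0 in S52, 6 in S38 and 5 in S44. Against the other libraries, 12 were lowest and 7 highest in S52, and the 7 include Cyp7b1, Cyp26a1, Cyp1a2 and Cyp2d9. The matching shares over all rows at such low levels were not worked out, so these counts have no background. Cyp2d9 was listed at 0 in S38 and was at 0.0859 (S44) and 0.512 FPKM (S52). Among all 24346 rows, the numbers at 0 were 8324 for S38, 8119 for S44 and 9923 for S52, against 51, 50 and 62 of the 93 P450 genes.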
